A study of Rattus norvegicus with 9 samples.

Results

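The genes described here were 9 of the 37209 genes in the table, and they were chosen by name as genes of myelin and of the mature oligodendrocyte. They were Mbp, Mog, Mag, Mobp, Cnp, Cldn11, Opalin, Ermn and Myrf. All 9 had a row in the table and all 9 passed the filter on low counts, which kept 16837 genes. They were measured by RNA-seq of frontal cortex from 9 male Wistar rats, labelled as 14 weeks old, with 3 rats in each group. Control rats (A1, A2 and A6) stayed with their dams undisturbed until weaning. Maternal separation (MS) rats (B3, B4 and B6) were kept apart from their dams for 4 h a day from postnatal day (PND) 1 to PND 21, a model of early-life stress. Rats labelled MS+EA (C3, C10 and C16), here called EA, had the same separation and then received electroacupuncture at the points GV20 and GV29 every other day from PND 61 to PND 81 under isoflurane. According to the methods of the study, Control and MS rats underwent the anaesthesia without the needles, and the sham-needled rats of the behavioural tests were not part of the sequencing. The litter of each rat is not given in the sources used here, so the p-values measure the spread between these rats only.

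Oligodendrocytes wrap axons of the central nervous system in myelin, a compacted multilayered membrane that speeds conduction and shields the axon. Myelination of the rodent cortex goes on well into adult life, and it responds to experience. A mature oligodendrocyte devotes much of its transcription to a small set of structural genes, which are switched on together under the transcription factors Sox10 and Myrf. The set described here spans these roles. Mbp and Mobp encode basic proteins on the cytoplasmic face of compact myelin. Mag, Mog and Opalin encode membrane proteins with an extracellular part, Mag facing the axon and Mog lying on the outermost surface of the sheath. Cldn11 encodes the tight junction claudin of the sheath, Cnp encodes an enzyme of the non-compact cytoplasm, Ermn encodes a cytoskeletal protein of late oligodendrocytes, and Myrf is the regulator itself.

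Transcripts of all 9 genes were well counted in every rat. Counts ranged from 302 for Mog in rat B4 to 27504 for Mbp in rat C3, so that counting error was small beside the differences between rats. The Schwann cell genes Prx, Pmp2 and Ncmap of peripheral myelin were close to 0, with at most 5 counts of Prx, 8 of Pmp2 and 1 of Ncmap in any library. Of the same list, Scn7a had at most 21 counts, and Egr2, which neurons also switch on with activity, had 95 to 571 counts. Total counts per rat were 16153292 to 19007907 in Control, 16106381 to 17243320 in MS and 12479905 to 14913736 in EA, so that every EA library was shallower than every other library. Expression is given as CPM, the count scaled to a common library size by TMM, which sets the libraries on one scale.

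The 9 genes went up and down together from rat to rat, whatever the group. EA rat C3 had the highest expression of all 9 rats for 9 of 9 genes, whereas it was the highest for 2015 of the 16837 genes tested. The other EA rats did not share this level, and C10 was the lowest of its group for 9 of 9 genes. In Control, A1 was the highest of its group for 8 of 9 genes and A6 the lowest for 9 of 9. In MS, B3 was the highest of its group for 7 of 9 genes and B4 the lowest for 7 of 9. Taking each gene relative to its own mean over the rats, the mean log2 level of the 9 genes was 0.67 in C3, 0.21 in C16 and -0.39 in C10. It was 0.24, 0.12 and -0.32 in the Control rats A1, A2 and A6, and 0.09, -0.39 and -0.23 in B3, B4 and B6 of the MS group. The range between the rats of one group was thus 1.06 in EA, 0.55 in Control and 0.49 in MS on the log2 scale, and the ranges of the groups overlapped. Together the 9 genes took 0.138% of all counts in B4 and 0.340% in C3. In bulk tissue, fewer oligodendrocytes and less of these transcripts per cell cannot be told apart.

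**Figure D1:**
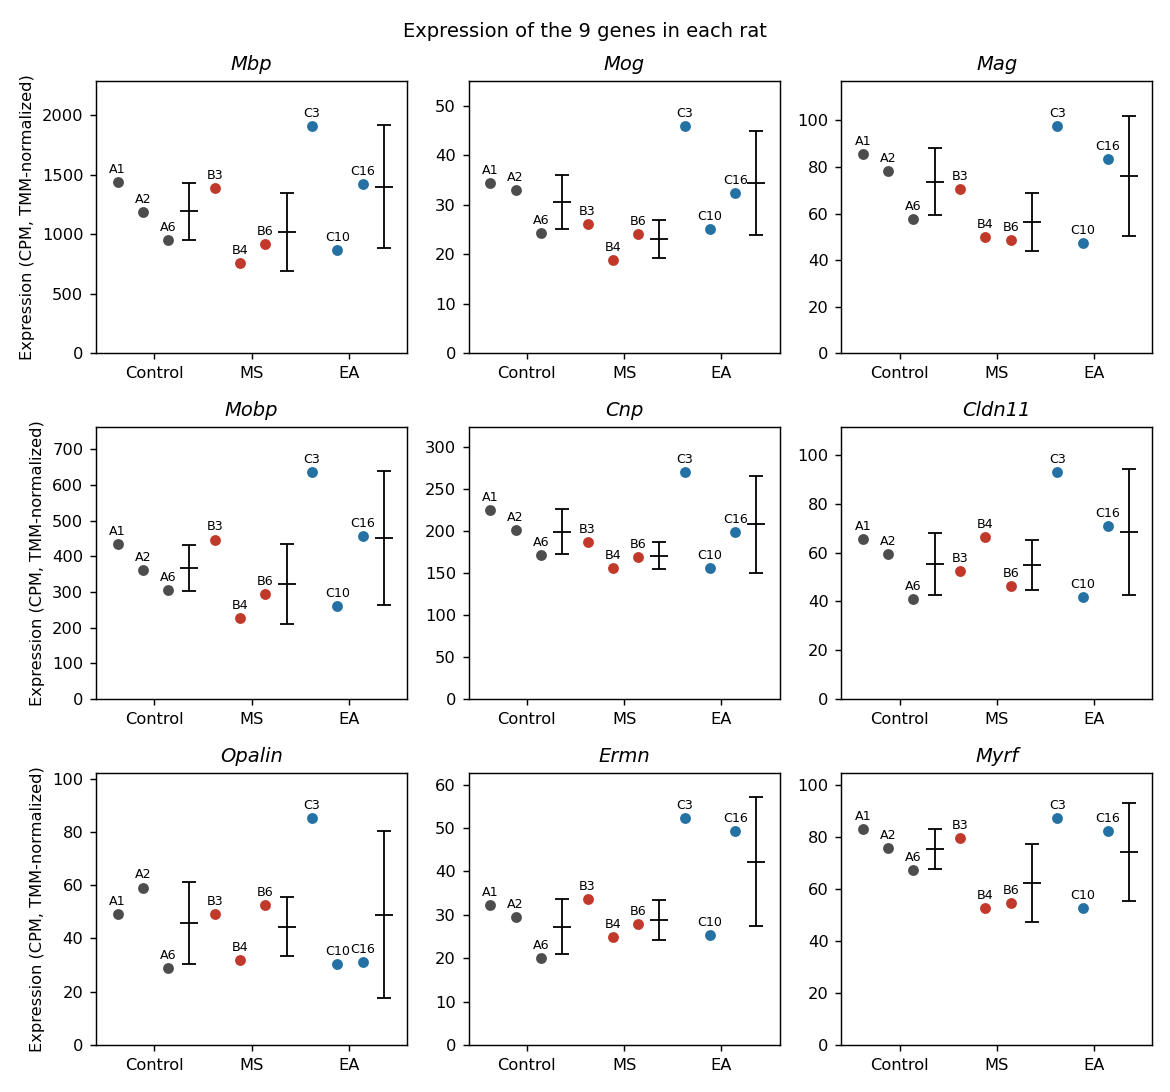
Expression of the 9 genes in each rat. Each panel plots one gene with CPM on a linear axis from 0, each point is one rat, and the bar to the right of each group is the mean ± SD of 3 rats. C3 is the highest point of every panel, and the groups overlap in every panel.

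This spread within groups was large for genes counted so deeply. The SD of log2 CPM within groups was 0.620 for Opalin, 0.493 for Mobp, 0.452 for Mbp, 0.424 for Cldn11 and 0.414 for Ermn. It was 0.400 for Mag, 0.327 for Mog, 0.311 for Myrf and 0.268 for Cnp. The median over all genes tested was 0.177, and the median over the 6044 genes counted at least as deeply as the least counted of the 9 was 0.103. Each of the 9 genes lay above both medians. The ratio of the highest to the lowest rat ran from 1.66 for Myrf to 2.95 for Opalin.

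**Figure D2:**
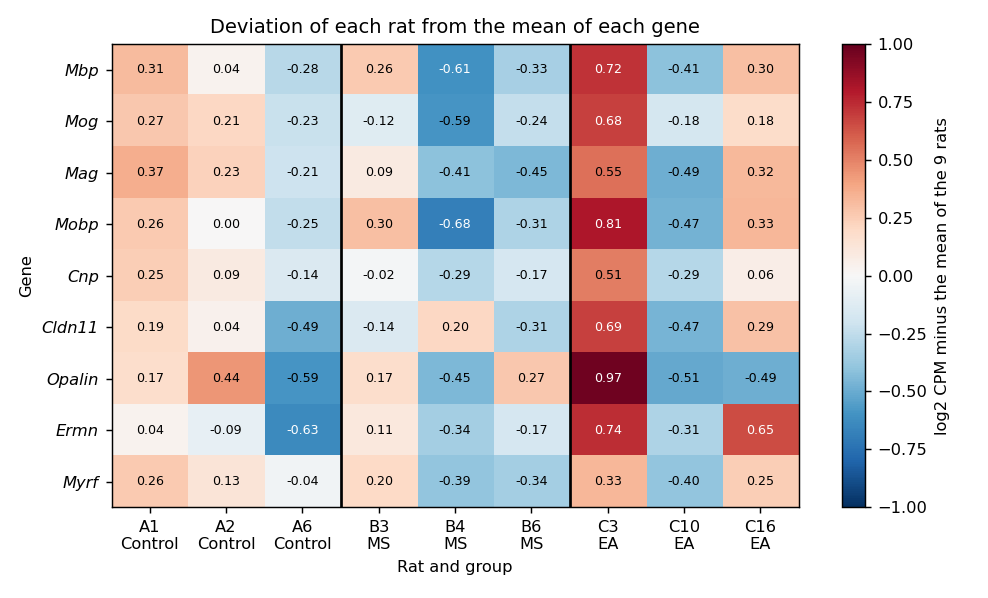
Level of each of the 9 genes in each rat relative to the mean of that gene over the 9 rats, in log2 CPM. C3 is above the mean of every gene, with a mean over the genes of 0.67, whereas C10, B4 and A6 lie at -0.39, -0.39 and -0.32.

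The promoters of these genes are shown because the genes moved together and because Myrf, the regulator among them, was measured as well. RefSeq windows on build GRCr8 were at hand for 6 of the 9 genes, and 5 of them are printed below, each with the 250 bases before the start of the gene, 5′ to 3′ on the strand of the gene. Capitals mark the letters CTGGCAC or CTGGTAC, a heptamer known to be bound by Myrf, and ACAAAG or ACAATG, hexamers of the kind bound by Sox factors, on either strand, so that a match on the other strand appears as the reverse complement of these letters. The windows are chr1:95291045-95291294 (minus strand) for Mag, chr10:86011254-86011503 (plus strand) for Cnp, chr1:249858191-249858440 (minus strand) for Opalin, chr2:114149540-114149789 (minus strand) for Cldn11 and chr8:128746982-128747231 (plus strand) for Mobp.
Mag: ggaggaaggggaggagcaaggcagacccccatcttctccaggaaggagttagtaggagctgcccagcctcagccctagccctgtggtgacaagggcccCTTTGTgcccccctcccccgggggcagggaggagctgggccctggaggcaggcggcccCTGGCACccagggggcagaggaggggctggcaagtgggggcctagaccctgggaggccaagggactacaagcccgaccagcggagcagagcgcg
Cnp: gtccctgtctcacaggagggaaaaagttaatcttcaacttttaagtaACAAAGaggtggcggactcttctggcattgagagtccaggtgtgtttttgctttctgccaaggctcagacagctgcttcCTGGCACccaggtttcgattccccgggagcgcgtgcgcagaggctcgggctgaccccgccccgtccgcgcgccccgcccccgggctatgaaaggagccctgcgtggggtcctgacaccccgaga
Opalin: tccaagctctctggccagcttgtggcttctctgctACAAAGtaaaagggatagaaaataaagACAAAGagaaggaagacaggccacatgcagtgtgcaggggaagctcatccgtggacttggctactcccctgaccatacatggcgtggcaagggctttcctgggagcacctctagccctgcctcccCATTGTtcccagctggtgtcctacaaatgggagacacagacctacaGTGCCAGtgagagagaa
Cldn11: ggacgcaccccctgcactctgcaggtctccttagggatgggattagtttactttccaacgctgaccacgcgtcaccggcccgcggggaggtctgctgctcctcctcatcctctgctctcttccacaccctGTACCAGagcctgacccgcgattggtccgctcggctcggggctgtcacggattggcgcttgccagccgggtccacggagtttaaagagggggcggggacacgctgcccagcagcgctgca
Mobp: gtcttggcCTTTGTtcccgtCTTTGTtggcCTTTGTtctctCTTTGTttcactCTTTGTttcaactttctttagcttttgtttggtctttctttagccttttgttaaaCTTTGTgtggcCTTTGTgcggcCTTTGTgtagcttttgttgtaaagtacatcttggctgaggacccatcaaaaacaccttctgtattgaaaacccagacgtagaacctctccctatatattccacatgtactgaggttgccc
The heptamer was present in 4 of 6 genes with a window (Mag, Cnp, Opalin and Cldn11) and in 5.48% of the 33469 RefSeq windows, each searched over the same 250 bases. In Opalin it lay 17 to 11 bases before the start, and in Mag 94 to 88 bases before it. A hexamer was present in 5 of 6 genes (Mbp, Mag, Mobp, Cnp and Opalin) and in 25.3% of all windows, and Mobp carried 8 copies of ACAAAG on the other strand. No heptamer and hexamer overlapped in the printed windows. A match describes the letters only, since binding was not measured.

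The comparison of MS with Control asks whether early separation left a difference in these genes in adult cortex. The mean was lower in MS for 8 of 9 genes and higher for Ermn, where 50.3% of all genes tested were lower in MS. No gene of the 9 passed the test, which called 4 of 16837 genes (0.0238%) when both an adjusted p below 0.05 and at least a 1.5-fold difference were required (edgeR quasi-likelihood test, Benjamini-Hochberg adjustment over all genes). At an unadjusted p under 0.05, the count among the 9 genes was 0 in edgeR, 1 in DESeq2 and 0 in limma, against 10.6% of all genes in edgeR. The count depended on the setting. With every gene of at least 1 count tested in edgeR it was 4 of 9, against 8.71% of all genes. With only the 6 rats compared it was 3 of 9, against 12.2%. No gene of the 9 passed an adjusted p of 0.05 in these fits. The median log2 difference of the 9 genes was -0.22, and the median of all genes was -0.00. For none of the 9 genes did the MS rats and the Control rats separate, whereas 17.6% of all genes did.

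Mog, the outermost protein of the sheath, had the largest of the 9 differences between MS and Control. Its expression was 34.4, 32.9 and 24.3 CPM in the Control rats A1, A2 and A6 and 26.2, 18.9 and 24.1 CPM in B3, B4 and B6 of the MS group. B4 and B6 lay below every Control rat, and B3 lay above A6 only. The log2 difference was -0.40 ± 0.201 (SE; 95% interval -0.84 to 0.03; adjusted p = 0.499). Mag, the adhesion protein that faces the axon, stood at 85.6, 78.1 and 57.5 CPM in Control and at 70.6, 49.97 and 48.6 CPM in MS. Again a single MS rat, B3, was above a single Control rat, A6. The log2 difference of Mag was -0.39 ± 0.229 (SE; adjusted p = 0.573). Myrf, the transcription factor, measured 83.1, 75.7 and 67.5 CPM in Control and 79.7, 52.7 and 54.7 CPM in MS, where B3 lay within the Control range and B4 and B6 lay below it. Its log2 difference was -0.27 ± 0.184 (SE; adjusted p = 0.631).

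For the remaining genes the MS and Control means were closer. Mbp averaged 1194 ± 243 CPM in Control and 1023 ± 326 CPM in MS (SD, n = 3), Mobp 368 ± 64.8 and 323 ± 113 CPM, and Cnp 199 ± 26.7 and 170.2 ± 15.9 CPM. The log2 differences were -0.22 for Mbp, -0.19 for Mobp and -0.23 for Cnp, each within 1 SD of the Control rats or close to it, and their adjusted p-values were 0.811, 0.857 and 0.652. Cldn11 and Opalin hardly differed in the mean, with 55.4 ± 12.8 and 55.1 ± 10.3 CPM for Cldn11 and 45.7 ± 15.4 and 44.5 ± 11.1 CPM for Opalin. The interval of the difference was nevertheless wide for Opalin, from -0.82 to 0.74 on the log2 scale. Ermn averaged 27.3 ± 6.32 CPM in Control and 28.8 ± 4.54 CPM in MS, a log2 difference of 0.08 (adjusted p = 0.940).

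The size of the MS difference rested on single rats. Without B3, the MS rat with high myelin transcripts, the median log2 difference of the 9 genes was -0.49. Without the Control rat A1 it was -0.07. B4, the MS rat with the lowest level of the 9 genes, also had the highest level of blood vessel transcripts, with Acta2 of smooth muscle at 44.2 CPM against 8.02 to 15.3 CPM in the other rats and the choroid plexus transcript Ttr at 9.13 CPM. All 9 endothelial and mural markers were higher in MS in the mean, with a median log2 difference of 0.30 and a summed level of 225 to 293 CPM in MS and 181 to 198 CPM in Control. Without B4 the median of the 9 myelin genes was -0.17, and the part of the vessel transcripts in the result was not tested.

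The comparison of EA with MS asks what differed after electroacupuncture in rats with the same early separation. The mean was higher in EA for 9 of 9 genes, where 50.1% of all genes were higher. The median log2 difference was 0.43 against 0.00 over all genes. No gene of the 9 passed the test, which called 3 genes (0.0178%). At an unadjusted p under 0.05, Mog and Ermn were the 2 of 9 genes that passed in edgeR, against 12.4% of all genes (6.01% with a higher level in EA), while 1 of 9 passed in DESeq2 and 1 of 9 in limma. With every gene of at least 1 count tested in edgeR, 7 of 9 passed this unadjusted threshold, against 9.57% of all genes. None of the 9 passed an adjusted p of 0.05 in that fit. The EA and MS rats overlapped for 9 of 9 genes, and 17.9% of all genes did not overlap. The MS rats are the same animals as in the comparison above, so a low MS rat lowers one comparison and raises the other.

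**Figure D3:**
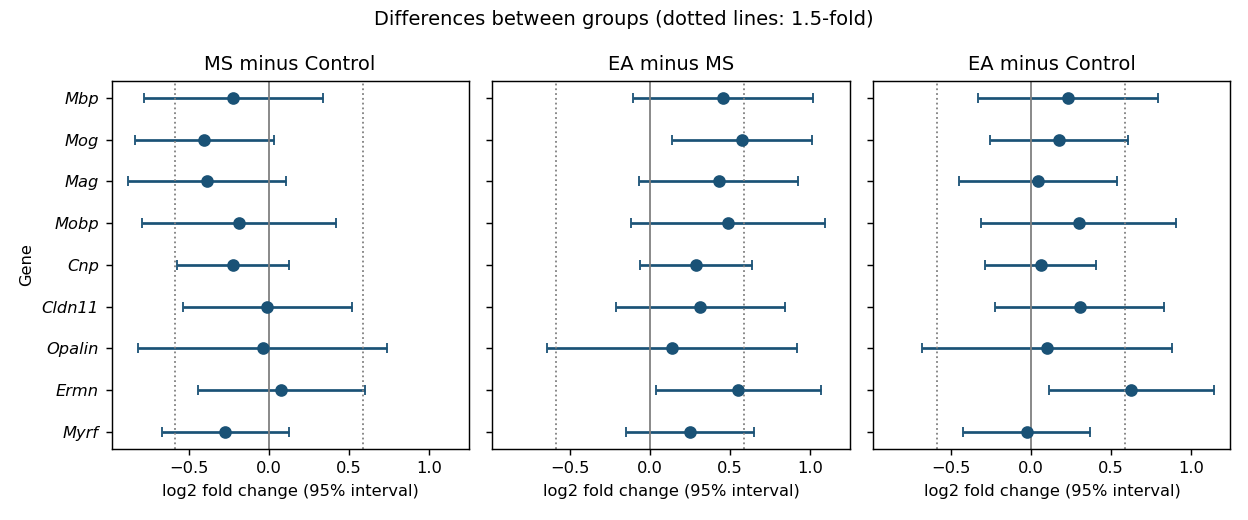
Log2 fold change of each of the 9 genes in the 3 comparisons, with the 95% interval from the edgeR fit. All 9 points lie above 0 for EA minus MS, and only the intervals of Mog and Ermn in that comparison and of Ermn in EA minus Control leave out 0.

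Mog and Ermn showed the largest differences between EA and MS. Mog measured 45.8 CPM in C3, 25.1 in C10 and 32.4 in C16, and 26.2, 18.9 and 24.1 CPM in B3, B4 and B6. Only C10 lay inside the MS range. Its log2 difference was 0.58 ± 0.202 (SE; 95% interval 0.14 to 1.01; unadjusted p = 0.0137, adjusted p = 0.300, edgeR). Ermn measured 52.3, 25.3 and 49.2 CPM in C3, C10 and C16 and 33.7, 24.8 and 27.9 CPM in the MS rats. C3 and C16 were above every MS rat, and C10 was below B3 and B6. The log2 difference of Ermn was 0.55 ± 0.238 (SE; 95% interval 0.03 to 1.07; unadjusted p = 0.0384, adjusted p = 0.371, edgeR).

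The transcripts of compact myelin followed the same rats. Mbp stood at 1908 CPM in C3, 869.6 in C10 and 1426 in C16, and at 1389, 761 and 918 CPM in B3, B4 and B6. C16 was close to B3, and C10 was below both B3 and B6. The log2 difference of Mbp was 0.45 ± 0.259 (SE; 95% interval -0.11 to 1.02; adjusted p = 0.492). Mobp stood at 636, 262 and 458 CPM in C3, C10 and C16 and at 448, 227 and 294 CPM in B3, B4 and B6, again with C16 beside B3. Its log2 difference was 0.49 ± 0.280 (SE; adjusted p = 0.498).

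Among the other genes, Mag measured 97.4, 47.3 and 83.2 CPM in C3, C10 and C16, and C10 was below every MS rat. Cnp averaged 208 ± 57.8 CPM in EA (SD, n = 3), with C3 at 269.6, C10 at 155 and C16 at 198 CPM. The log2 differences from MS were 0.43 for Mag and 0.29 for Cnp, with adjusted p-values of 0.463 and 0.486. Cldn11, at 93.0, 41.7 and 70.7 CPM in C3, C10 and C16, had a log2 difference of 0.31 (adjusted p = 0.631). Myrf averaged 74.1 ± 18.7 CPM in EA, a log2 difference of 0.25 from MS (adjusted p = 0.616). Opalin gave the clearest case of a mean carried by 1 animal, with 85.3 CPM in C3 but 30.5 in C10 and 31.0 in C16. Its log2 difference of 0.14 had an interval from -0.64 to 0.92, and without C3 it was -0.53.

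The size of the difference and the unadjusted counts depended on which EA rats entered the comparison. Without C3 the median log2 difference between EA and MS was 0.16, 8 of 9 genes were higher and 0 of 9 had an unadjusted p under 0.05, against 12.4% of all genes in that fit. Without C10 the median was 0.68 and 8 of 9 genes had an unadjusted p under 0.05, against 11.4% of all genes in that fit. Leaving out an MS rat moved the median to 0.62 without B3 and to 0.29 without B4. In none of these fits did a gene of the 9 pass an adjusted p of 0.05 between EA and MS (edgeR).

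**Figure D4:**
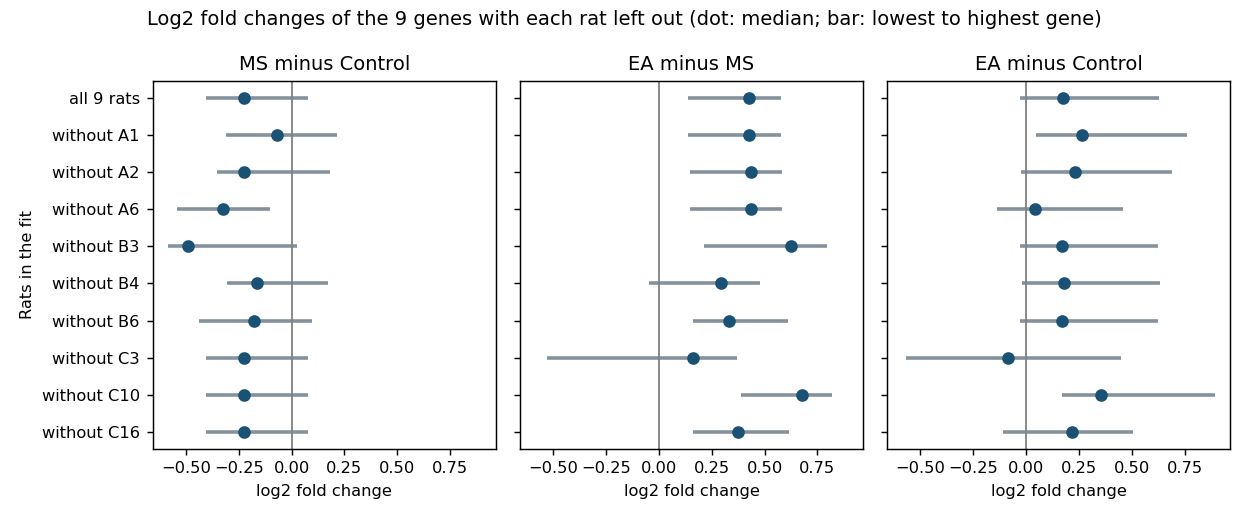
Median log2 fold change of the 9 genes in each comparison from all 9 rats and from the fits lacking a single rat. The EA minus MS median moves between 0.16 without C3 and 0.68 without C10, and the EA minus Control median falls to -0.08 without C3.

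The comparison of EA with Control sets treated separated rats beside rats that were never separated. The mean was higher in EA for 8 of 9 genes, where 50.9% of all genes were higher, and the median log2 difference was 0.17. No gene of the 9 was called, against 1.37% of all genes tested. Ermn was the 1 of 9 genes with an unadjusted p under 0.05 in edgeR, against 22.5% of all genes (11.9% with a higher level in EA), and the count was 0 in DESeq2 and 1 in limma. Its mean was 42.3 ± 14.8 CPM in EA and 27.3 ± 6.32 CPM in Control (SD, n = 3), a log2 difference of 0.63 ± 0.239 (SE; 95% interval 0.11 to 1.14; adjusted p = 0.141). C10, at 25.3 CPM, lay within the Control rats at 32.2, 29.5 and 20.1 CPM. Without C10 the log2 difference of Ermn was 0.89 and it passed the test (adjusted p = 0.0304, edgeR), and without C3 it was 0.45. Ermn passed also when every gene with at least 1 count was tested (0.62; adjusted p = 0.0145, edgeR). That fit called more genes over the whole table than the main fit. In both fits Ermn was the 1 of 9 genes called. Of all genes, 20.1% had an unadjusted p under 0.05 without C10 and 16.7% with every gene of at least 1 count. No other alternative called Ermn.

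For the other 8 genes the log2 difference between the EA and Control means was smaller than for Ermn. The log2 differences were 0.30 for Mobp and Cldn11, 0.23 for Mbp, 0.17 for Mog, 0.10 for Opalin, 0.06 for Cnp, 0.04 for Mag and -0.03 for Myrf. Their adjusted p-values ran from 0.499 for Cldn11 to 0.953 for Myrf. The narrowest interval of these differences was -0.29 to 0.41 for Cnp, and the widest was -0.68 to 0.88 for Opalin. The intervals of Mobp (-0.31 to 0.90) and Cldn11 (-0.22 to 0.83) also reached well above 0, so closeness of the groups was not shown. Without C3 the median of the 9 genes was -0.08 and 7 of 9 genes were lower in EA. Without the Control rat A6 the median was 0.04, and without C10 it was 0.36. None of the 9 genes separated EA from Control, and 25.9% of all genes did. In a test of any difference among the groups, which 2.03% of all genes passed, 0 of 9 genes did. The lowest p-values were those of Ermn and Mog (adjusted p = 0.232 and 0.235, edgeR).

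In the means, EA was the highest and MS the lowest group for Mbp, Mog, Mag, Mobp, Cnp, Cldn11 and Opalin. Ermn had its lowest mean in Control, and Myrf had its highest mean in Control. Neighbouring groups in these orders did not differ beyond their spread in the adjusted test.

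The 9 genes were not interchangeable once their common level was taken out. Each gene was set against the mean log2 level of the other 8 in the same rat, a measure chosen after the values were seen and given without a test. Ermn then lay at -0.36 to -0.22 in Control, at 0.01 to 0.07 in MS and at 0.08 to 0.49 in EA. In this measure the 3 groups did not overlap, although MS and EA lay close together. Of 16828 genes outside the set, each against the mean of the 9, 3 (0.0178%) had this order without overlap. Taking away the mean of the 9 adds its own swing to those genes, from 0.67 in C3 to -0.39 in C10 within EA. The share is therefore not a like background for Ermn, and the order was picked after it was seen. In CPM the groups overlapped for Ermn in each comparison. Mag lay at 0.12 to 0.15 in Control and at -0.25 to -0.01 in MS, and Mog at 0.04 to 0.10 in Control and at -0.24 to -0.01 in MS. Both genes were lower in every MS rat than in every Control rat by this measure. This held for 2 of 9 genes, and for 78 of the 16828 genes outside the set (0.464%). The opposite direction held for 1 of 9, Ermn, and for 4.88% outside the set. The mean log2 level of the 9 genes was itself lower in MS (-0.18) than in Control (0.01). Taking it away raises a gene outside the set in MS relative to Control. These shares are therefore not a like background for the 9 genes. In EA, Mag ranged from -0.13 to 0.13 and Mog from -0.03 to 0.24. Opalin was the most variable gene against the other 8 (SD 0.404 over the 9 rats), from 0.56 in B6 to -0.79 in C16. Cldn11 stood apart in B4 at 0.67, where the other 8 genes were low, and Mbp followed the other genes most closely (SD 0.132).

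Genes outside the set shared its pattern over the rats. Ranked by the Pearson correlation of log2 CPM with the mean of the 9 genes over the 9 rats, the first 10 of 16828 genes included Sox10 (0.976), Prr18 (0.956), Ugt8 (0.954), Sept4 (0.953), LOC103692070 (0.944), Micall1 (0.942), Tf (0.940), Fa2h (0.938) and Atp10b (0.935). These are descriptions over the same 9 libraries, without a test. Sox10, the transcription factor that acts upstream of Myrf, measured 35.6, 33.3 and 26.6 CPM in Control, 31.7, 23.0 and 25.7 CPM in MS and 41.1, 24.7 and 32.0 CPM in C3, C10 and C16. As in the mean of the 9 genes, C3 was the highest rat and B4 the lowest. Ugt8 and Fa2h make the galactolipids of myelin, and Tf encodes the iron carrier transferrin. C3 was the highest rat for each of these named genes. Within the set, the correlation of each gene with the mean of the other 8 ran from 0.968 for Cnp and 0.965 for Mbp down to 0.741 for Cldn11 and 0.659 for Opalin.

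A wider list of 30 other genes of mature oligodendrocytes, with lipid enzymes, gap junction proteins and receptors, was examined beside the 9 genes. Of these, 29 were tested, and Tmem125 had at most 2 counts in any library. Between EA and MS, 28 of 29 were higher in EA, with a median log2 difference of 0.34, and Sirt2 was the exception at -0.06. None passed an adjusted p of 0.05 in edgeR, and 5 of 29 had an unadjusted p under 0.05, against 12.4% of all genes and 6.01% in the higher direction. These 5 genes, named after their values were seen, were Tf (0.65), Qdpr (0.50), Lpar1 (0.49), Ugt8 (0.47) and Tspan2 (0.43). Between MS and Control 25 of 29 were lower in MS with a median of -0.14, and between EA and Control 21 of 29 were higher with a median of 0.13. The wider list moved with the same rats, since its mean log2 level was 0.44 in C3 and -0.34 in C10.

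In the mean of each list, earlier stages of the lineage moved less between C3 and C10. The difference between C3 and C10 in the mean log2 level was 1.06 for the 9 genes, 0.78 for the 29 other mature genes, 0.39 for 10 genes of newly formed oligodendrocytes and 0.34 for 11 genes of oligodendrocyte precursors. Single genes of the last 2 lists, named after their values were seen, went both ways. Enpp6 stood at 5.48 CPM in C3 and 1.07 in C10 (79 and 16 counts). Matn4 stood at 2.84 and 0.871 CPM (41 and 13 counts). Sema5a, at 218 and 282 CPM, and Tnr, at 267 and 333 CPM, were lower in C3. Between EA and MS, 8 of 10 newly formed genes and 7 of 11 precursor genes were higher in EA, with medians of 0.10 and 0.08. Bcas1, a marker of newly formed oligodendrocytes, measured 174, 95.02 and 222 CPM in C3, C10 and C16 and 135, 84.7 and 93.7 CPM in MS. It was higher in EA by 0.64 (adjusted p = 0.325, edgeR), with C10 inside the MS range. This was the largest difference of the 10 genes. Sema5a and Frmd4a, with Bcas1 the most expressed of the list, differed by 0.09 and -0.07 (adjusted p = 0.808 and 0.845, edgeR). Pdgfra, the growth factor receptor of precursors, averaged 84.1 CPM in Control, 99.9 in MS and 91.3 in EA, and its difference between EA and MS was -0.13 (adjusted p = 0.758, edgeR).

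The regulators were split in direction. Gpr17, Gpr37, Nkx2-2 and Tcf7l2 stand in more than one of these lists. Of 18 regulators of oligodendrocyte differentiation tested, 9 were higher and 9 lower in MS than in Control, and 11 were higher in EA than in MS. The list was not sorted by whether a gene promotes or holds back differentiation. Hes5, named after its value was seen, differed most between EA and MS, by -0.86 (adjusted p = 0.322, edgeR). Hes5 was lower and Id4 higher in every EA rat than in every MS rat, where 17.9% of all genes did not overlap. Sox10 was higher in EA than in MS by 0.28 (adjusted p = 0.539, edgeR). Chd8, a chromatin remodeller, differed by 0.04, and Zeb2, a transcription factor, by -0.01. Their groups overlapped. The 11 genes of the axoglial junction and node, most of them expressed by neurons, had a median of -0.06 between EA and MS. Among them Cntnap2, a protein of the juxtaparanode, was lower in every EA rat (42.9, 48.2 and 43.6 CPM) than in every Control rat (59.9, 55.6 and 54.3 CPM). Its log2 difference was -0.33 with an adjusted p of 0.0322 in edgeR, below the fold change needed for a call. Between EA and Control, 2 of the 11 genes did not overlap, against 25.9% of all genes. Cntnap2 was the 1 of 11 with an unadjusted p under 0.05 in edgeR, against 22.5% of all genes.

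**Figure D5:**
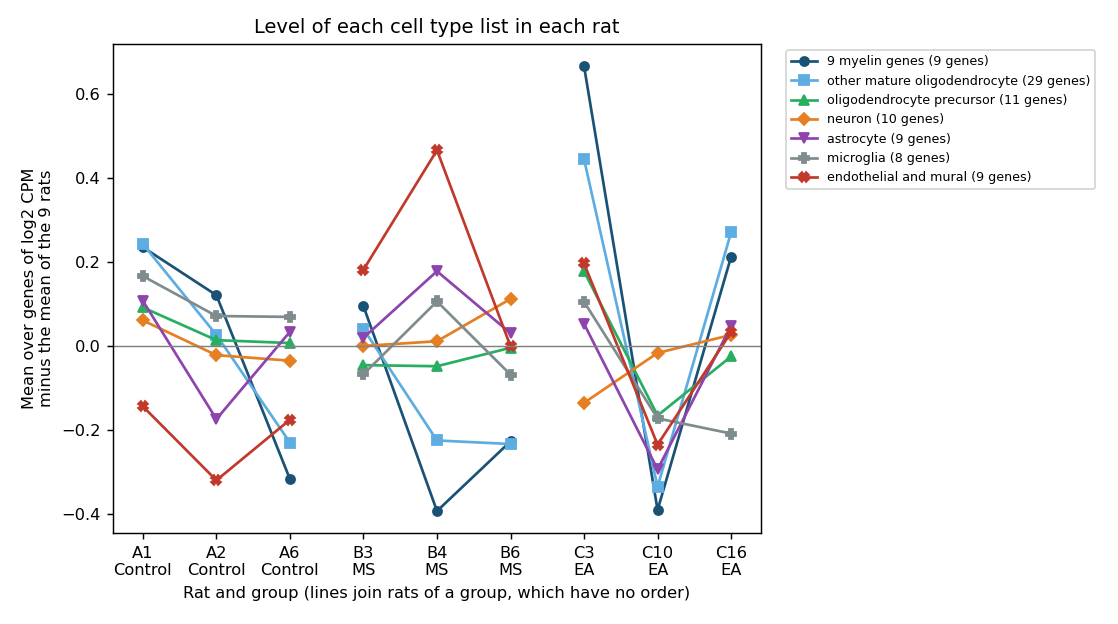
Mean log2 level of each gene list in each rat, relative to the mean of its genes over the 9 rats. The 9 genes and the other mature oligodendrocyte genes are highest in C3 and low in C10, whereas the neuron markers are lowest in C3 at -0.14.

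Other cell types were compared in the same rats. The 10 neuron markers varied by 0.25 on the log2 scale over the rats against 1.06 for the 9 myelin genes, and C3, the highest rat for the myelin genes, was the lowest for them, with a summed level of 8197 CPM against 9070 to 10005 CPM in the other rats. Between EA and Control 5 of the 10 neuron markers were higher and 5 lower in EA, with a median log2 difference of -0.01. The glutamatergic markers Slc17a7 and Camk2a were the 2 that passed an adjusted p of 0.05, both lower in EA, by 0.30 and 0.36 on the log2 scale (adjusted p = 0.0207 and 0.0387, edgeR). At an unadjusted p under 0.05 the count was 2 of 10 in edgeR, against 22.5% of all genes. Astrocyte markers differed between C3 and C10 by 0.35, microglia markers by 0.28 and endothelial and mural markers by 0.43. Over all 9 rats these lists varied by 0.47, 0.38 and 0.79. The endothelial and mural range was thus about that of the 29 other mature oligodendrocyte genes (0.78), with B4 the highest rat and A2 the lowest. Markers of striatal neurons, taken for subcortical tissue and 7 of them tested, had a mean log2 level of 0.03 to 0.16 in EA and of -0.18 to -0.07 in MS, which did not overlap, and C3 was the highest rat. Control, at -0.08 to 0.13, overlapped both groups. Taken singly, 1 of the 7 markers did not overlap between EA and MS, against 17.9% of all genes tested. No such share was computed for means over several genes. The median difference of the 7 markers between EA and MS was 0.30, with 5 higher and 2 lower in EA. Adora2a averaged 3.60 CPM in EA and 4.88 in MS, and Ppp1r1b 75.4 and 84.5 CPM. The part of neurons, vessels and subcortical tissue in the level of the 9 genes was not tested.

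Of the 9 genes, Mog overlaps Zfp57 in the RefSeq annotation, and Zfp57 had 160 to 234 counts in these libraries against 302 to 660 for Mog. Mbp and Mag overlap noncoding genes that have no row in the table. Whether the counting used strand is not given in the sources used here, so reads of overlapping genes cannot be told apart.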

How the data were processed

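Frontal cortex RNA of 9 male Wistar rats (3 per group) was sequenced as total RNA without rRNA. The authors deposited 1 table of read counts per gene. HISAT2 2.0.4 and the build Rnor_6.0 are named in the submitters' processing notes, and the counting program, its strand setting and its treatment of reads with several locations are not given in the sources used here. Totals of 12479905 to 19007907 counts per rat set the precision. Groups and replicate names came from the sample titles. No pair of libraries agreed within sampling noise (chi-square per gene at least 6.12).

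Counts were scaled by TMM, and filterByExpr (minimum count 10) kept 16837 of 37209 genes. One edgeR (4.0.16) quasi-likelihood fit of the 9 rats gave each comparison, with Benjamini-Hochberg adjustment over all genes tested. A call needed both an adjusted p below 0.05 and at least a 1.5-fold difference, the thresholds of the study, whose own program EBSeq was not used here. Log2 CPM values used a prior count of 2. Alternatives were DESeq2 (1.42.0), limma (3.58.1), other scalings, filters and each rat left out. The script was tested on simulated data with 200 changed genes. The 9 genes, the gene lists and the motifs were chosen with earlier results of these data known. Genes named outside the 9 were the 3 most expressed of a list, those of a list with an adjusted p under 0.05, and the 10 genes most like the 9 over the rats, with any other choice stated beside it. Some genes that this rule selects are not reported here. Tf was matched to the older symbol Trf, and Zfp191 to Zfp24. Promoter windows came from RefSeq on GRCr8. No coordinates of the counting annotation were used.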

Additional observations from a re-analysis of the deposited data

How the results depend on the processing

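No paired analysis was possible because the groups hold different rats and share fewer than 2 replicate names. Of 459 alternative values for the 9 genes, 428 kept the direction and the side of the threshold, 29 turned direction, and 2 passed the threshold (Ermn, given above). Turned values stayed near 0 outside the fits that left out a rat: with limma, Cldn11 in MS minus Control was 0.0039, Opalin in EA minus MS -0.0092, and Mag and Opalin in EA minus Control -0.001 and -0.0192, and with total counts Myrf in EA minus Control was 0.005. With each rat left out, the MS minus Control log2 difference ran from -0.50 to 0.0108 for Mobp, -0.19 to 0.13 for Cldn11, -0.28 to 0.18 for Opalin and -0.10 to 0.21 for Ermn. EA minus MS ran from -0.53 to 0.39 for Opalin. EA minus Control ran from -0.0504 to 0.48 for Mbp, -0.0842 to 0.36 for Mog, -0.17 to 0.29 for Mag, -0.0263 to 0.57 for Mobp, -0.17 to 0.23 for Cnp, -0.57 to 0.35 for Opalin and -0.16 to 0.17 for Myrf. The number of genes called over the whole table moved more. For MS minus Control it was 4, and 70 with DESeq2, 207 with every gene of at least 1 count, 11 with the 6 rats compared, and 2 to 22 with each rat left out (22 without B3). For EA minus MS it was 3, and 6 with DESeq2, 1 with bias-adjusted deviances, 72 with every gene of at least 1 count, 1 with the 6 rats compared, 1 to 4 with each rat left out, and 0 with at least 10 counts in every rat, where 1951 genes had an unadjusted p under 0.05 in edgeR. For EA minus Control it was 230, and 469 with every gene of at least 1 count, 910 without the fold threshold, and 71 to 304 with each rat left out (71 without A1). The cause was not tested. The 95% intervals of single genes were 0.70 to 1.56 wide on the log2 scale.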
